A study of Mus with 18 samples.

Results

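Lens epithelial cells (LECs) lacking functional Egr1 were compared with wild type (WT) LECs 6 h after lens injury. The comparison used 6 of the 18 mouse RNA-seq libraries of the series, namely the 3 labelled Egr1 null and the 3 labelled wild type at 6 h. It covered every gene row that passed a filter on low counts, 15618 of 55416 gene IDs. Injury was the surgical removal of the fiber cell mass, which leaves the LECs on the lens capsule and models cataract surgery (post cataract surgery, PCS). Each library pooled 5 capsules of mice aged 3 to 5 months. The Egr1KO mice are described as a germline deletion in the methods and, in the series text, as a systemic knockout in which an inserted neo cassette truncates Egr1. Either way the change was present in all cell types, not in LECs alone. Labels give C57BL/6 as the strain of all groups, whereas the methods describe the Egr1KO line as being of mixed background. The other libraries are WT and Egr1KO LECs at 0 h and FosBcKO LECs at both times, in which a floxed Fosb was deleted with the lens cre MLR10. They served here to define injury genes and to show the state before injury.

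Egr1 is a zinc finger transcription factor of the immediate early class, whose mRNA appears within minutes of growth factor, stress or wound signals, often through ERK signaling, without new protein synthesis. It binds GC-rich sites in promoters and drives a second wave of genes, and it is restrained by the Nab corepressors. In wounded epithelia it has been tied to inflammatory and migratory programs, and LECs left behind by cataract surgery are the source of posterior capsular opacification. Because the count tables and the gene table at hand pair no ID with a symbol, the genes below are described by their ID, their level and their behavior after injury, and the role of a single ID is not given. For the same reason neither the Egr1 mRNA nor the defining markers of LECs, fiber cells and leukocytes were examined, so Egr1KO below means the libraries so labelled.

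The 6 libraries at 6 h held 9920318 to 13871592 read pairs in genes. Pairs outside annotated genes made up 23.63% to 27.36% of a WT library and 20.03% to 24.01% of an Egr1KO library. The 10 most abundant genes took 17.68% to 18.85% of the gene counts in WT and 19.42% to 24.65% in Egr1KO. Libraries of the same genotype correlated at r = 0.929 to 0.963 in WT and 0.893 to 0.941 in Egr1KO over log2 counts per 1000000 (CPM), against 0.844 to 0.950 between genotypes. Egr1KO replicate 2, the deepest library, stood apart: its mean r was 0.944 with the WT libraries and 0.917 with the other Egr1KO libraries. Egr1KO replicate 1 had the lowest mean r of the 6 both with its own group (0.910) and with the other genotype (0.885). The counts of DEGs and of called injury genes are given with and without either library. Counts of genes whose libraries did not overlap are given with all libraries only. In bulk samples, fewer cells of a type and less RNA per cell cannot be told apart.

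At 6 h PCS, 115 genes differed between Egr1KO and WT by more than 2-fold at a false discovery rate (FDR) of at most 0.05 in edgeR's exact test, which is 0.736% of the 15618 tested. Of these differentially expressed genes (DEGs), 72 were higher (0.461%) and 43 were lower (0.275%) without Egr1. The higher DEGs were mostly of moderate level and change, with a median log2 difference of 1.83, a range of 1.04 to 4.63 and 28 genes over 4-fold. The lower DEGs were fewer, less abundant and further apart, with a median log2 difference of -2.63 and 34 genes over 4-fold. Their median average level was 2.27 log2 CPM, against 4.27 log2 CPM for the higher DEGs. The 3 Egr1KO values lay above the 3 WT values for 72 of the 72 higher DEGs, and below them for 42 of the 43 lower DEGs. Over all genes tested, 6.09% had their Egr1KO libraries above and 8.01% below the WT libraries. The DEGs were chosen by these same values, so their separation is a description.

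The number of DEGs depended on the test and on single libraries. The quasi-likelihood F-test of edgeR called 0 genes on the same counts, with a smallest FDR of 0.394 and 1317 genes (8.43%) at an unadjusted p under 0.05, against 1511 (9.67%) by the exact test. The 115 DEGs were among the genes with an unadjusted p under 0.05 in that F-test. It uses the same libraries that chose them, so this does not stand on its own. Without Egr1KO replicate 2 the DEGs of the exact test numbered 946, with 215 higher and 731 lower. They numbered 186 without Egr1KO replicate 1, 46 without Egr1KO replicate 3 and 54 without WT replicate 1. Across the fits that left out 1 library each, 20 genes were called every time, 15 higher and 5 lower.

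**Figure D1:**
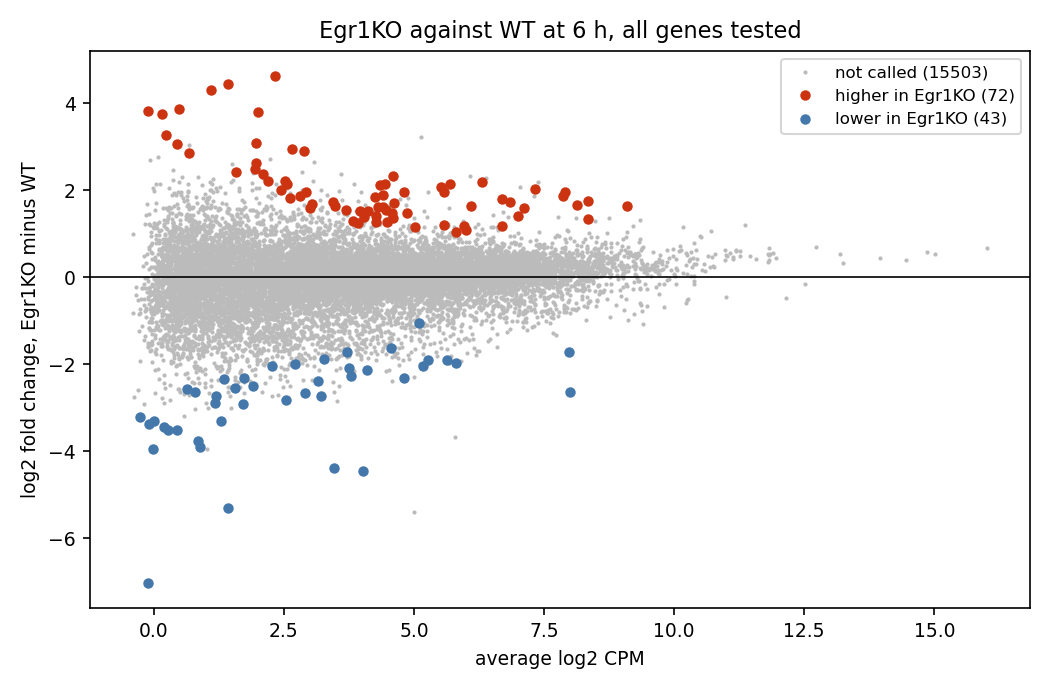
Each point is a gene of the Egr1KO against WT comparison at 6 h, with its average level (log2 CPM) on the horizontal axis and the log2 fold change, Egr1KO minus WT, on the vertical axis. Red points are the 72 genes called higher and blue points the 43 called lower by the exact test; the lowest point, at -7.02, is a gene with no count in any Egr1KO library at 6 h, whose fitted value is no estimate of the fold.

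Per direction, 2 IDs are shown in full, those at either end of the log2 difference among the 96 DEGs that averaged at least 1 log2 CPM and whose libraries did not overlap. The scale of their levels is CPM after TMM (trimmed mean of M values) scaling over all libraries.

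ENSMUSG00000112825 had the highest difference. Its levels at 6 h were 9.27, 9.55 and 9.27 CPM in the Egr1KO libraries, a mean of 9.36 ± 0.158 CPM (SD, n = 3). In WT at 6 h they were 0.366, 0.799 and 0 CPM, a mean of 0.388 ± 0.400 CPM (SD, n = 3). All Egr1KO libraries stood far above all WT libraries, with a log2 difference of 4.63 ± 0.80 (SE), 24.7-fold (exact test FDR = 2.77e-07, quasi-likelihood FDR = 0.394). The difference was 5.67 without WT replicate 2 and 4.02 without WT replicate 3, and it was called in both. It was too low in WT and FosBcKO to be tested for a response to injury there. At 0 h it stood at 9.16, 11.4 and 17.2 CPM in Egr1KO, while it had no count in the 3 WT libraries, so that it was at least 131-fold higher against a floor of 3 counts over the WT group (exact test FDR = 1.07e-24). FosBcKO libraries at 6 h held 0.158, 0.0912 and 0.167 CPM, near the WT values. Its response to injury within Egr1KO was a log2 difference of -0.43 ± 0.29 (SE), which did not pass (quasi-likelihood FDR = 0.300).

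ENSMUSG00000105703 showed the same order of the WT and Egr1KO groups at both times. In Egr1KO at 6 h it measured 4.31, 6.63 and 3.33 CPM (mean 4.76 ± 1.69, SD, n = 3), and in WT 0.0915, 0.300 and 0.250 CPM (mean 0.214 ± 0.109, SD, n = 3). The groups did not overlap, and the log2 difference was 4.44 ± 0.66 (SE), 21.7-fold (exact test FDR = 8.77e-06, quasi-likelihood FDR = 0.394). Before injury the levels were 5.50, 7.21 and 6.01 CPM in Egr1KO and 0, 0.633 and 0.472 CPM in WT, a log2 difference of 4.01 (exact test FDR = 4.83e-07). Unlike the first gene, it was also present in FosBcKO at 6 h, at 3.00, 5.29 and 3.00 CPM. The change of its genotype difference from 0 h to 6 h was 0.38 ± 1.16 on the log2 scale (SE), with a quasi-likelihood interaction FDR of 0.960.

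ENSMUSG00000004366 was the lowest without Egr1, and it was called risen after injury in WT. It went from 0.0950, 0 and 0.189 CPM at 0 h to 2.29, 1.60 and 10.8 CPM at 6 h in WT, and this rise passed the test (quasi-likelihood FDR = 0.0102). As the WT libraries at 0 h held 3 counts in all, the rise is given as a ratio of pooled counts, 55.4 with an exact 95% interval of 18.6 to 271 that covers counting error only. In Egr1KO it measured 0.0833, 0 and 0 CPM at 0 h and 0, 0.291 and 0 CPM at 6 h. FosBcKO libraries reached 4.35, 5.38 and 0.584 CPM at 6 h, a log2 response of 2.10 ± 1.43 (SE) that did not pass (quasi-likelihood FDR = 0.324). Only 1 of the 3 Egr1KO libraries at 6 h had counts, 4 in all, and the groups did not overlap. The log2 difference at 6 h was -5.31 ± 1.25 (SE), 39.5-fold lower (exact test FDR = 0.00498, quasi-likelihood FDR = 0.504). The call was lost without WT replicate 3 (log2 difference -3.95, FDR = 0.0575) and without Egr1KO replicate 3 (log2 difference -4.81, FDR = 0.0909). Without Egr1KO replicate 2 no count was left in Egr1KO, so no fold is given for that setting. The interaction with time did not pass (quasi-likelihood FDR = 0.863).

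The difference of ENSMUSG00000064193 at 6 h was largely carried by 1 WT library. WT at 6 h held 1.83, 4.0 and 56.2 CPM (mean 20.7 ± 30.8, SD, n = 3), and Egr1KO held 0.773, 0.874 and 1.25 CPM (mean 0.966 ± 0.251, SD, n = 3). At 0 h the separate WT library numbered 3 also stood apart. Levels were 0.950, 1.63 and 45.1 CPM in the 3 WT libraries at 0 h, against 3.16, 1.99 and 3.56 CPM in Egr1KO. The log2 difference at 6 h was -4.39 ± 1.26 (SE), 20.9-fold lower, with an exact test FDR of 0.0392 and a quasi-likelihood FDR of 0.550. Without WT replicate 3 it was -1.56, with an exact test FDR of 0.860. The call was also lost without Egr1KO replicate 1 (log2 difference -4.235, exact test FDR = 0.162). The same held without Egr1KO replicate 2 (-4.294, FDR = 0.0562) and without Egr1KO replicate 3 (-4.595, FDR = 0.297).

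**Figure D2:**
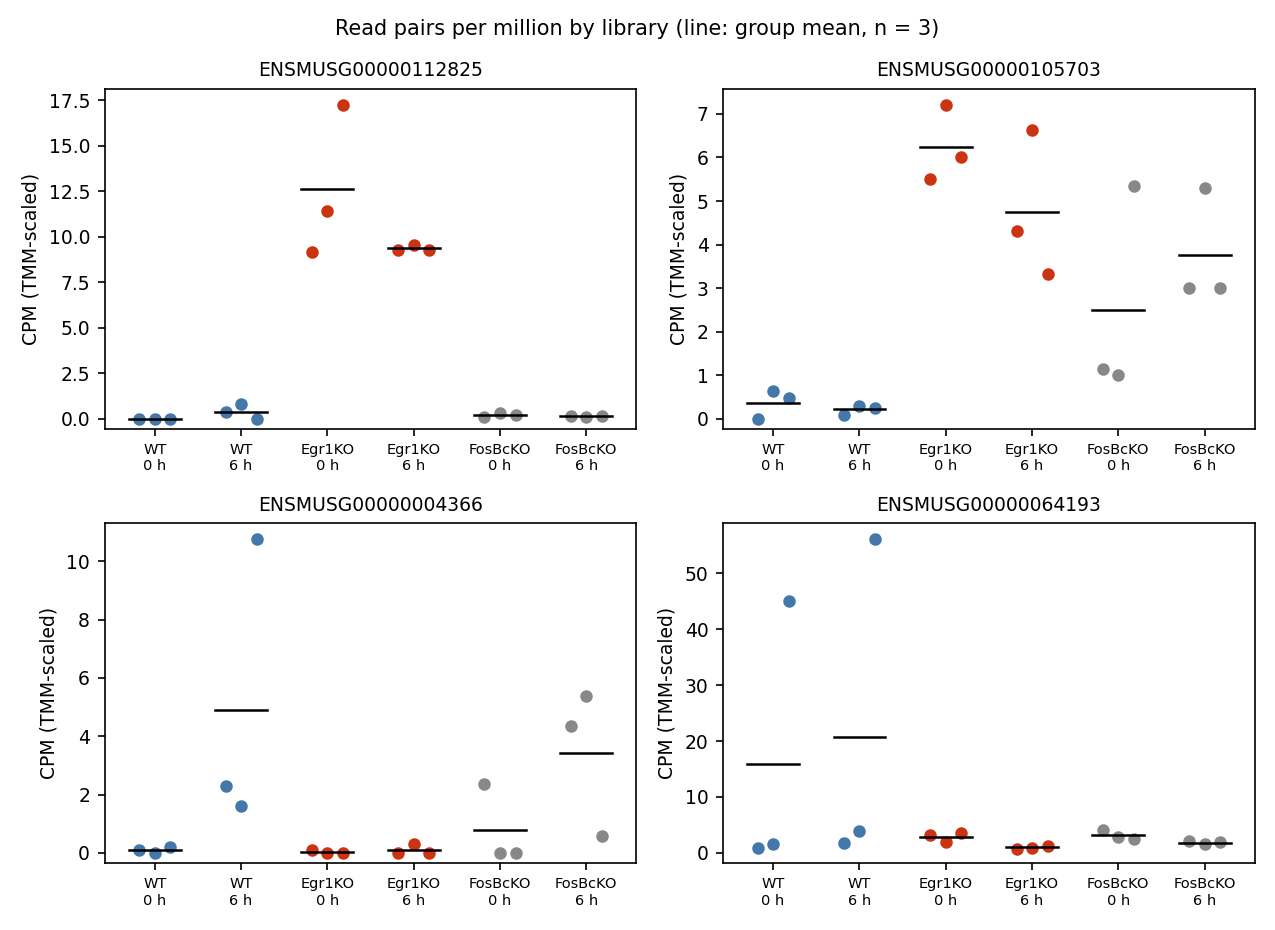
Each point is 1 library and each line a group mean (n = 3) of TMM-scaled CPM for the IDs with the highest (top row) and lowest (bottom row) difference, in WT, Egr1KO and FosBcKO at 0 h and 6 h. The top genes were separated by genotype before injury as well, and ENSMUSG00000004366 was low in both genotypes at 0 h. The high values of ENSMUSG00000064193, 45.1 and 56.2 CPM, came from the separate WT libraries numbered 3 at 0 h and at 6 h.

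How the DEGs stood before injury differed between the directions. Of the 72 higher DEGs, 63 could be tested at 0 h, where 4 were called higher and 0 lower in Egr1KO, and 45 had the same sign as at 6 h. Their median log2 difference at 0 h was 0.18. Of the 43 lower DEGs only 23 passed the count filter at 0 h, of which 3 were called lower and 22 had the same sign, with a median log2 difference of -0.69. At 0 h, 59 of 14373 genes were called in all (0.41%), 13 higher (0.0904%) and 46 lower (0.32%). A test of the difference between the genotypes in their response to injury, the interaction in the quasi-likelihood F-test over 18 libraries, called 0 of 17469 genes, with 1141 (6.53%) at an unadjusted p under 0.05. DESeq2 called 2 genes in the same test. Of the 72 higher DEGs, 25 had an unadjusted interaction p under 0.05 and a log2 response that was higher in Egr1KO than in WT. Of the 43 lower DEGs, 12 had such a p and a lower response in Egr1KO. A higher response can be a smaller fall and a lower one a larger fall, so these are not counts of rises. The 6 h libraries enter both tests, so these counts describe the DEGs and do not stand on their own.

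To ask which injury genes were affected, injury genes were taken from the FosBcKO libraries, none of which enters the comparison of Egr1KO with WT. In these libraries 1733 genes rose and 294 fell at 6 h against 0 h by more than 2-fold (quasi-likelihood FDR of at most 0.05), 11.2% and 1.9% of 15475. Of the risen ones 1677 were tested in the comparison at 6 h, and of the fallen ones 281. A gene that responds to injury only when Fosb is intact is not in these lists, and one that responds only without Fosb is. Of the 1677 risen genes tested, 1066 were called risen in WT, 566 were not called and 45 were not tested there. Over all genes tested in WT, 13.5% were called risen.

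Among the 1677 risen injury genes, 51 were DEGs without Egr1, 35 higher (2.09%) and 16 lower (0.954%), against 0.461% and 0.275% over all genes tested. Among the 12738 genes tested in FosBcKO and not called there, 45 were called (0.353%), 31 higher and 14 lower. Of the 281 fallen injury genes, 1 was called higher and 0 lower. The remaining 18 DEGs, 5 higher and 13 lower, were too low in FosBcKO to be tested there. These counts rest on single libraries as the DEG count does. Called injury genes numbered 36 higher and 16 lower with all libraries. They numbered 76 and 354 without Egr1KO replicate 2, 79 and 11 without Egr1KO replicate 1, and 12 and 4 without Egr1KO replicate 3. Without WT replicate 1 they numbered 8 and 6, and without WT replicate 3 they numbered 50 and 5. The lower genes outnumbered the higher ones without Egr1KO replicate 2 and also without WT replicate 2 (18 higher, 21 lower). By the quasi-likelihood F-test, 0 injury genes were called.

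At the median, the risen injury genes were slightly lower without Egr1. Their median log2 difference at 6 h was -0.32, with quartiles of -0.93 and 0.38, against a median of 0.03 over all genes tested. Egr1KO libraries lay below WT for 249 of them (14.8%) and above for 145 (8.65%), against 8.01% and 6.09% over all genes tested. The median stayed negative without each library in turn, from -0.16 without WT replicate 3 to -0.51 without Egr1KO replicate 2. By level the medians were -0.13 at 0 to 3, -0.49 at 3 to 6 and -0.25 over 6 average log2 CPM, against -0.08, 0.03 and 0.12 for all genes of these levels. The same genes had a median difference of -0.23 at 0 h. Fallen injury genes had a median log2 difference above 0, with a value of 0.32 and quartiles of 0.12 and 0.52.

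These medians were not alike across the sizes of the injury response in FosBcKO. Genes that rose 2- to 4-fold had a median log2 difference of -0.19 (n = 891), and 29 were called higher (3.25%) and 4 lower (0.449%), against 0.461% and 0.275% over all genes tested. Genes that rose 4- to 16-fold had the lowest median, -0.65 (n = 693), with 5 called higher (0.722%) and 10 lower (1.44%). Egr1KO libraries lay below WT for 122 of them (17.6%) and above for 23 (3.32%), against 8.01% and 6.09% over all genes tested. The 93 genes that rose over 16-fold had a median of 0.33, with 1 called higher (1.08%) and 2 lower (2.15%). Left-out libraries moved these medians from -0.31 to -0.07, from -1.09 to -0.37 and from 0.19 to 0.60, without a change of sign. At 0 h, over the genes testable then, the median differences of the 3 classes were -0.15, -0.40 and -0.74. The medians at 6 h thus include differences present before injury. Whether the medians of the 3 classes differ was not tested at either time.

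**Figure D3:**
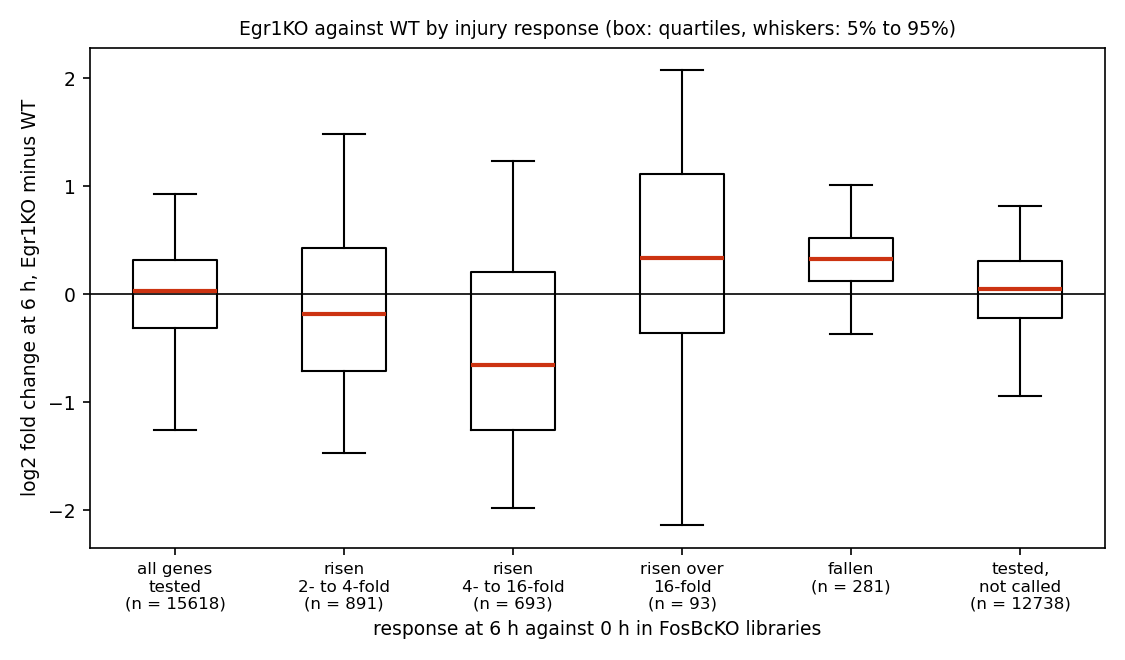
Boxes give the quartiles and the median (red) of the log2 fold change at 6 h, Egr1KO minus WT, and whiskers the 5% and 95% points, for genes grouped by their response to injury in the FosBcKO libraries. The box of genes that rose 4- to 16-fold sits lowest (median -0.65), and that of genes that rose over 16-fold has a median of 0.33.

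The level of the risen injury genes was also described library by library. For each library, the median over the 1732 risen injury genes that passed the filter over 18 libraries was taken as log2 CPM minus the WT mean at 0 h. At 6 h it was 1.80, 1.67 and 2.17 in WT and 0.87, 1.91 and 1.51 in Egr1KO. Egr1KO replicate 2 lay within the WT values, and the other Egr1KO libraries lay below all of them. At 0 h the medians were 0.20, -0.49 and 0.33 in WT and -0.18, -0.03 and -0.28 in Egr1KO, and the FosBcKO libraries reached 2.38, 2.02 and 1.45 at 6 h. In all 3 Egr1KO libraries the median at 6 h lay above those at 0 h, and 816 of the 1677 risen injury genes also rose in Egr1KO and 1066 in WT by the quasi-likelihood F-test of 6 h against 0 h. Over all genes tested in that F-test, 9.28% rose in Egr1KO and 13.5% in WT. The WT and Egr1KO responses use separate libraries and correlated at r = 0.791 across 14266 genes, which are not independent replicates.

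Most of the 35 injury genes called higher without Egr1 were not called risen in WT. Their median response at 6 h against 0 h was 0.93 in Egr1KO and 1.22 in FosBcKO on the log2 scale. Over the 32 genes also testable in WT it was -0.71 in WT and 0.90 in Egr1KO. Both of these responses share their 6 h libraries with the comparison that chose the genes, so this order was favored by the choice. These values and the counts of risen genes are therefore a description. In WT 4 of the 35 were called risen by the quasi-likelihood F-test, and in Egr1KO 13. Of all genes tested, 13.5% were called risen in WT and 9.28% in Egr1KO. By library their median level relative to WT at 0 h was 0.33, -0.44 and 0.40 in WT at 6 h, and 1.71, 2.03 and 1.81 in Egr1KO at 6 h. The FosBcKO libraries stood above both, at 3.10, 3.16 and 2.86 at 6 h and 1.84, 1.57 and 1.61 at 0 h. At 0 h the WT libraries spread widely, at 1.07, -2.46 and 1.27, with WT replicate 2 at 0 h far below the others, and the Egr1KO libraries at 0.11, 1.25 and 0.96 lay within that spread. The part of this spread in the WT response was not tested. The difference at 6 h ranged from 1.09 to 3.87 in these genes (median 1.72), and 9 exceeded 4-fold.

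The 16 injury genes called lower without Egr1 had a higher median response in WT than in Egr1KO. Their median response on the log2 scale was 3.00 in WT and 2.35 in FosBcKO. In Egr1KO it was 1.69 over the 13 genes testable there, whose median in WT was 2.98. All 16 rose in WT by the quasi-likelihood F-test, 6 rose in Egr1KO, 7 were tested there and did not pass, and 3 were too low to be tested. Of all genes tested, 13.5% rose in WT and 9.28% in Egr1KO. Their median level at 6 h relative to WT at 0 h was 3.06, 2.77 and 3.71 in the WT libraries and 0.47, 1.75 and 0.80 in the Egr1KO libraries. Egr1KO replicate 2 was again the nearest to WT. At 0 h the Egr1KO libraries stood at -0.46, -0.47 and -0.76, and the WT libraries at 0.16, -0.60 and 0.61. FosBcKO libraries at 6 h reached 3.09, 2.51 and 1.58. The difference at 6 h ranged from -2.82 to -1.05, with a median of -2.02. Without WT replicate 3, only 5 injury genes were called lower. The WT and Egr1KO responses share their 6 h libraries with the comparison that chose these genes, so they are given as a description.

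**Figure D4:**
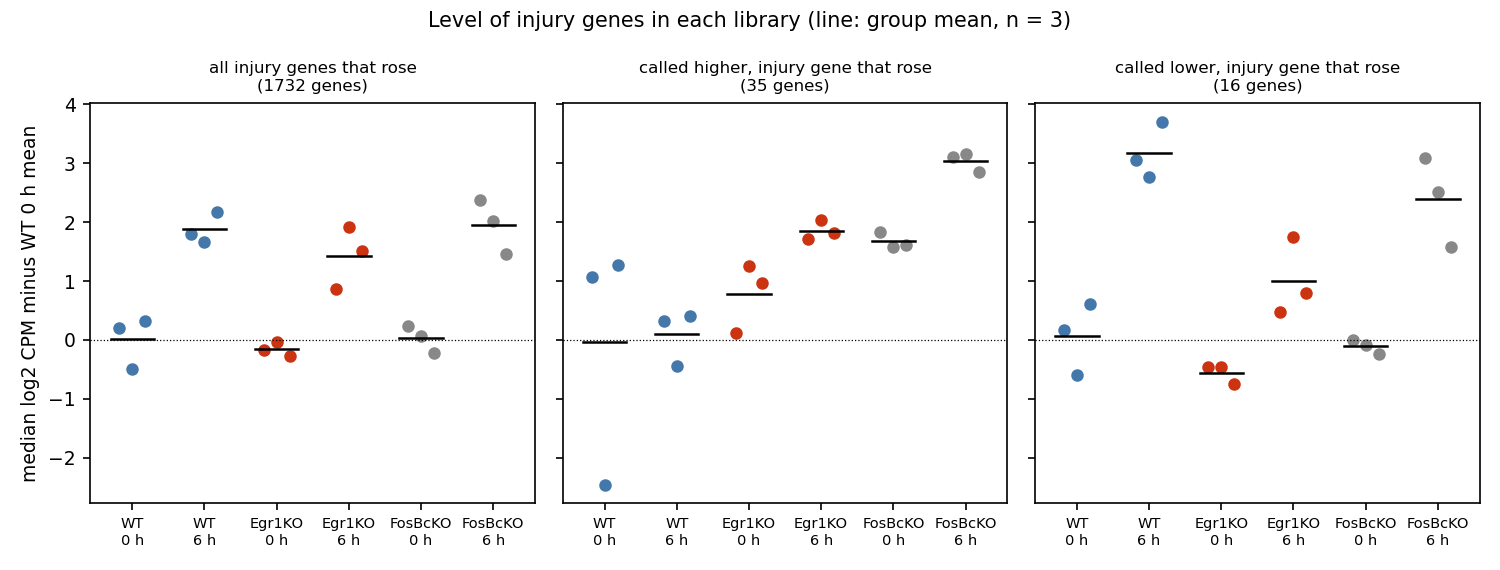
Each point is 1 library and each line a group mean (n = 3) of the median log2 CPM minus the WT mean at 0 h, for all risen injury genes, the 35 called higher and the 16 called lower without Egr1. In the left panel Egr1KO replicate 2 at 6 h (1.91) lies among the WT libraries; in the middle panel the low WT point at 0 h is replicate 2 (-2.46); in the right panel all Egr1KO points at 6 h (0.47 to 1.75) lie below all WT points at 6 h (2.77 to 3.71).

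DEGs without an injury call in FosBcKO formed the other large share. The 31 higher ones lay at -0.42, -0.65 and -0.16 in WT and 1.66, 1.54 and 1.49 in Egr1KO at 6 h, relative to WT at 0 h. FosBcKO was high as well, at 2.28, 2.18 and 1.79. Of these 31 genes, 11 rose in Egr1KO from 0 h to 6 h, and 1 rose and 3 fell in WT by the quasi-likelihood F-test. Of all genes tested, 9.28% rose in Egr1KO, and 13.5% rose and 3.65% fell in WT. The 14 lower ones lay at 2.54, 2.27 and 2.80 in WT and -0.56, 0.08 and -0.43 in Egr1KO at 6 h, and FosBcKO reached 1.59, 0.81 and 1.11. In WT 8 of these 14 rose by the same test, as did 1 in Egr1KO, where 6 were too low to be tested. The 13 lower DEGs that were not testable in FosBcKO were not testable in the Egr1KO response either, while 9 of them rose in WT. A gene can pass the count filter at 6 h through its WT libraries and fail it elsewhere. The filter thus favored this pattern, which is no result about these genes. Both responses share their 6 h libraries with the comparison that chose these genes, so the counts are a description.

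**Figure D5:**
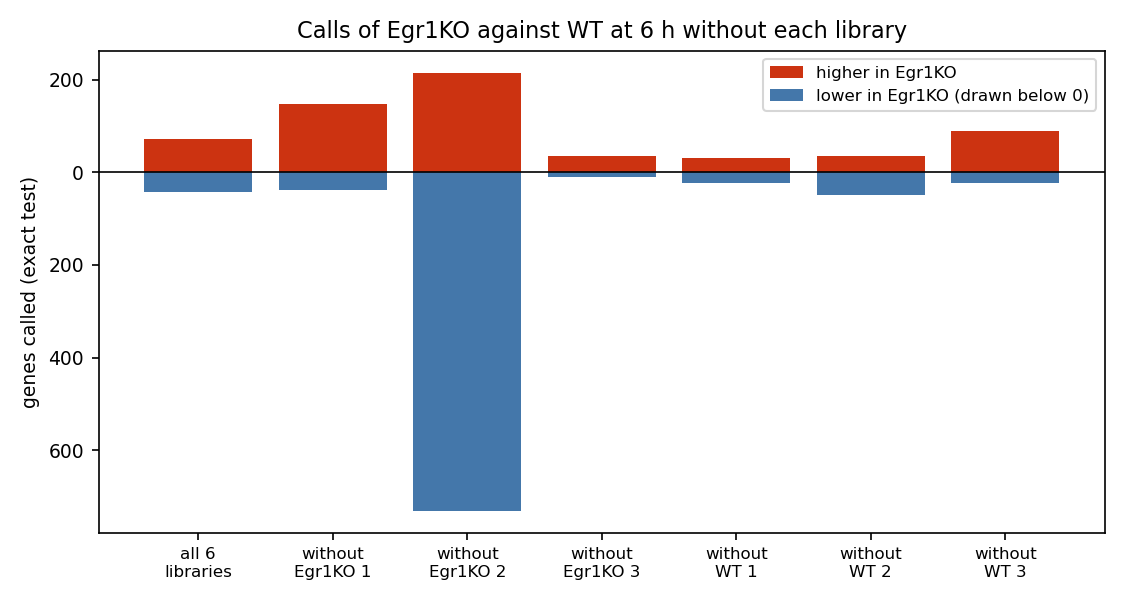
Bars give the number of genes called in Egr1KO against WT at 6 h by the exact test with all 6 libraries and without each one, higher in Egr1KO above 0 and lower in Egr1KO drawn below 0. The count rises from 115 to 946 without Egr1KO replicate 2, most of it in lower genes (731), and is smallest without Egr1KO replicate 3 (46).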

How the data were processed

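From stranded paired-end libraries depleted of ribosomal RNA, the authors aligned reads with HISAT2 and counted them with HTSeq-count. Their methods name GRCm38 and the processing notes GRCm39, and no coordinate is used. What was deposited are unnormalized counts, in read pairs per Ensembl ID. PCR copies count separately, as molecular identifiers are not mentioned, and near-identical gene copies are uncertain. Lines without a gene (pairs outside genes, unaligned and ambiguous pairs) were left out.

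Groups came from the sample titles. Each library is a pool from 5 independent animals, which the methods count as 1 biological replicate. The p-values thus measure the spread between the pools, 3 per group. Genotypes at the same time were compared with the exact test of edgeR 4.0.16 in R 4.3.3 (filterByExpr, TMM scaling, robust dispersions), which the study's methods name. Responses to injury and the interaction used edgeR's quasi-likelihood F-test, which also gave the standard errors. A call needed a Benjamini-Hochberg FDR of at most 0.05 and over 2-fold. CPM values are counts per 1000000 of TMM-scaled library size. At 9920318 to 13871592 pairs per library the biological coefficient of variation was 0.367. DESeq2 1.42.0, other scaling and filters, a replicate block and leaving out each library were tried.

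Members and lists were chosen with earlier results of these data known. The tables hold IDs only, and the gene table matched 0 of 55416 IDs, so the planned gene lists, cell type markers and Egr1 levels were not analysed here. With no symbols, at most 2 IDs per direction were printed, from a rule that would have named more.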

Additional observations from a re-analysis of the deposited data

How the results depend on the processing

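The 115 DEGs at 6 h became 109 with DESeq2 and 114 to 116 with RLE scaling, scaling without the 10 most abundant genes (chosen after seeing the data), no fold minimum, another count filter or unrobust dispersions. They became 76 without a filter (29369 genes tested), 0 with the quasi-likelihood F-test, 0 with its replicate block and 7 in that test over all 18 libraries. The 52 injury genes among them became 0, 0 and 1 in the last 3 settings. Leaving out 1 library gave 46 to 946 DEGs and 14 to 430 injury genes. The cause of these moves was not tested. The 0 interaction calls became 2 with DESeq2 and 264 without a filter, 209 and 55 by direction, and 0 to 1 when 1 library was left out (1 without WT replicate 3 at 6 h). The 59 DEGs at 0 h became 17 with the quasi-likelihood F-test, 10 with its replicate block and 32 to 89 without 1 library. Deviations of same-numbered libraries at 6 h from their group means correlated at r of 0.238, -0.233 and -0.135. Pairs with unlike numbers ran from -0.25 to 0.38. With deviations from means of 3 libraries, this cannot decide whether the numbers pair them. Of 64 values of the printed IDs under alternatives, 0 reversed and 19 lost their call, 9 of them for ENSMUSG00000064193. With library size alone for scaling, the median log2 difference over all genes would be -0.195 in place of 0.015, and genes with Egr1KO wholly above or below WT would be 495 and 2150 in place of 951 and 1251. With 3 pools per group at this depth, small differences could not be detected.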
